A study of Mus musculus with 6 samples.

Results

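The 7 genes described here, Gpx3, Cgref1, Adam23, Adgrd1, Kcnk1, Fscn3 and Fam102a, had much higher read counts in 2 mouse osteosarcomas than in 2 soft tissue sarcomas and were listed as having no classic role in bone. They are 7 of 38561 genes in the count tables and 7 of the 19024 genes that passed the filter on low counts. They were chosen by their normalised read counts in the tumours (CPM, counts per 1000000 reads on genes), higher in both osteosarcomas than in both soft tissue sarcomas. That difference is therefore given as a description without a test. RNA was sequenced from 3 groups of 2 libraries: NG2-positive cells that were antibody-sorted out of skeletal muscle (NG2 cells), osteosarcomas (replicate 1 from the right tibia, replicate 2 from the lumbar spine) and subcutaneous soft tissue sarcomas. All came from NG2-Cre;p53flox/flox mice of mixed background, so the NG2 cells carried the same alleles as the tumours, and no library from mice with intact p53 was among them. In these mice the Cre recombinase is expressed under control of the NG2 gene, Cspg4, a gene of pericytes and other cells, and removes a floxed part of Trp53. Ages were not given, and nothing said whether the libraries of a group came from separate animals, so the p-values speak for the spread of these libraries. In osteosarcoma that spread lies between tumours of different bones, and in the other groups it may be technical.

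The 7 proteins do unlike things. Gpx3 is a secreted glutathione peroxidase, an enzyme that reduces peroxides in extracellular fluid and blood plasma and carries selenocysteine in its active site. Cgref1 is a secreted protein with EF-hand calcium-binding motifs, named as a cell growth regulator. Adam23 belongs to the ADAM membrane proteins but lacks protease activity and binds the secreted LGI proteins and integrins. Adgrd1 (GPR133) is an adhesion G protein-coupled receptor that raises cAMP through Gs, and Ptk7 has been described as a partner. Kcnk1 (TWIK1) is a K2P potassium leak channel, Fscn3 is the testis member of the fascin family of actin bundlers, and Fam102a (EEIG1) is an estrogen-induced cytosolic protein that has been linked to RANK signalling in osteoclast precursors.

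Short coding stretches compare Gpx3 and Adam23 with some of their relatives. The first set, from GENCODE M21 transcripts, shows the in-frame TGA that Gpx3 reads as selenocysteine, in capitals, and the codon aligned to it in 4 relatives.
Gpx3: gtagccagctacTGAggtctgacagaccaa
Gpx1: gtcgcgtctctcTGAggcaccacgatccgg
Gpx4: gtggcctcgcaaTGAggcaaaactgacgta
Gpx7: gtagctagcgaaTGTggcttcacagaccag
Gpx8: gtggctagtgacTGCcgcttcacagacaag
Gpx1 and Gpx4 share the TGA with Gpx3, while Gpx7 and Gpx8 have a cysteine codon there. The second set shows the zinc-binding stretch of the active protease Adam12 and what aligns to it in the non-catalytic Adam23 and Adam22, with the 3 histidine codons of Adam12 and the codons aligned to them in capitals.
Adam12: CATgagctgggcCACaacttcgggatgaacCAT
Adam23: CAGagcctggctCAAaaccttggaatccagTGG
Adam22: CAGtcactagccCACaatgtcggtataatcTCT
Adam23 has none of the 3 histidine codons at these positions. Adam22 has the middle one, CAC, and lacks the first and the last.

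Promoter windows of 300 bases around the start site (RefSeq, GRCm38.p6) were found for 6 of the 7 genes, all but Adgrd1. Both strands were searched for the RUNX core TGTGGT, the AP-1 motif TGANTCA, the TATA box (TATAAA), the CCAAT box, the GC box (GGGCGG) and the E-box (CANNTG). These occurred in 16.8%, 7.81%, 13.6%, 37.4%, 35.6% and 72.3% of all 32817 windows. The 4 windows below span the range from CpG-rich to CpG-poor, with matches in capitals except the E-box. They are Gpx3 (chr11:54902604-54902903, plus strand), Fam102a (chr2:32535109-32535408, plus), Cgref1 (chr5:30945378-30945677, minus) and Fscn3 (chr6:28427651-28427950, plus).
Gpx3: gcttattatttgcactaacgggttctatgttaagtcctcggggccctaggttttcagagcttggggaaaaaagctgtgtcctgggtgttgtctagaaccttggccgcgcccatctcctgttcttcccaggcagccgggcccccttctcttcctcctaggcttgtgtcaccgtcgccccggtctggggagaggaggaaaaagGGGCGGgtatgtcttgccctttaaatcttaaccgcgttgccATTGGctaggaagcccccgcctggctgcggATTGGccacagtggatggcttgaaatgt
Fam102a: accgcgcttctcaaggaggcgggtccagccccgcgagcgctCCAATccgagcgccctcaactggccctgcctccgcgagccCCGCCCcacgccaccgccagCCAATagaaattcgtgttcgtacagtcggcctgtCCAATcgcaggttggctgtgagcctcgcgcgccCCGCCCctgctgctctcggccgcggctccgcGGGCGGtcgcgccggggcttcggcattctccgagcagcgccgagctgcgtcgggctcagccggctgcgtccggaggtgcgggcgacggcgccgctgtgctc
Cgref1: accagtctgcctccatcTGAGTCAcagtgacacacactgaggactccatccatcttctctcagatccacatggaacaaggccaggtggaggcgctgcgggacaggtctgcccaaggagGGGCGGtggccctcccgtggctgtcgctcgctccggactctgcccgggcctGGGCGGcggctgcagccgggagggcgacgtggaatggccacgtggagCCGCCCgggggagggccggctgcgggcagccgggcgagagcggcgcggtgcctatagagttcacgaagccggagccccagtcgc
Fscn3: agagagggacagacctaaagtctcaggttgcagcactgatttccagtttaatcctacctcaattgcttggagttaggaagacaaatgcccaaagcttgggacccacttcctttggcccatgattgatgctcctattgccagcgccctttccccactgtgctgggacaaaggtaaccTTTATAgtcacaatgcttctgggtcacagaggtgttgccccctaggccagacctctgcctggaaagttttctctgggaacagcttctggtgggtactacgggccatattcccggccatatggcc
No motif was shared by all 6 genes, and none of the members' windows held the RUNX core. Fam102a had 44 CpG dinucleotides and 73.3% GC, with 3 CCAAT and 3 GC box matches, against a median of 7 CpG and 52.7% GC over all windows. Fscn3 had 3 CpG, 51.7% GC and 1 TATAAA match at -74 from the start site. Gpx3 had 13 CpG, with CCAAT matches at -8 and 23 and a GC box at -49. Cgref1 had 26 CpG and 1 AP-1 match at -233, which overlaps an E-box at -237. These matches are descriptions of letters in a window.

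CPM values were scaled by edgeR's TMM factors. Reads on genes ranged from 27693585 to 58126832 per library. The labels were checked on marker genes. Sp7, a transcription factor of osteoblasts, had 134 and 84.6 CPM in the osteosarcomas and 0 counts in both soft tissue sarcomas. Cspg4, the NG2 gene itself, had 38.6 and 30.6 CPM in the sorted cells, 118 and 37.7 CPM in osteosarcomas and 188 and 88.7 CPM in soft tissue sarcomas. Osteosarcoma replicate 2 lay between the sorted libraries and the other tumours above both. The floxed Trp53 had 101 and 82.3 CPM in the sorted cells and 24.3 to 32.6 CPM in the tumours, with counts that include exons outside the deleted part. Ptprc, the leukocyte gene CD45, had 1328 and 1131 CPM in the sorted cells and 49.8 to 132 CPM in the tumours. Xist, the RNA of the inactive X chromosome, had 347 and 488 CPM in the sorted cells, 54.2 and 204 CPM in osteosarcomas and 0.0839 and 0.135 CPM in soft tissue sarcomas. Each group had a sequencing lane of its own, per the deposited names, so lane and group cannot be told apart; the part of the Xist difference in any result was not tested. In bulk samples, fewer cells of a type and less RNA per cell cannot be told apart.

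**Figure D1:**
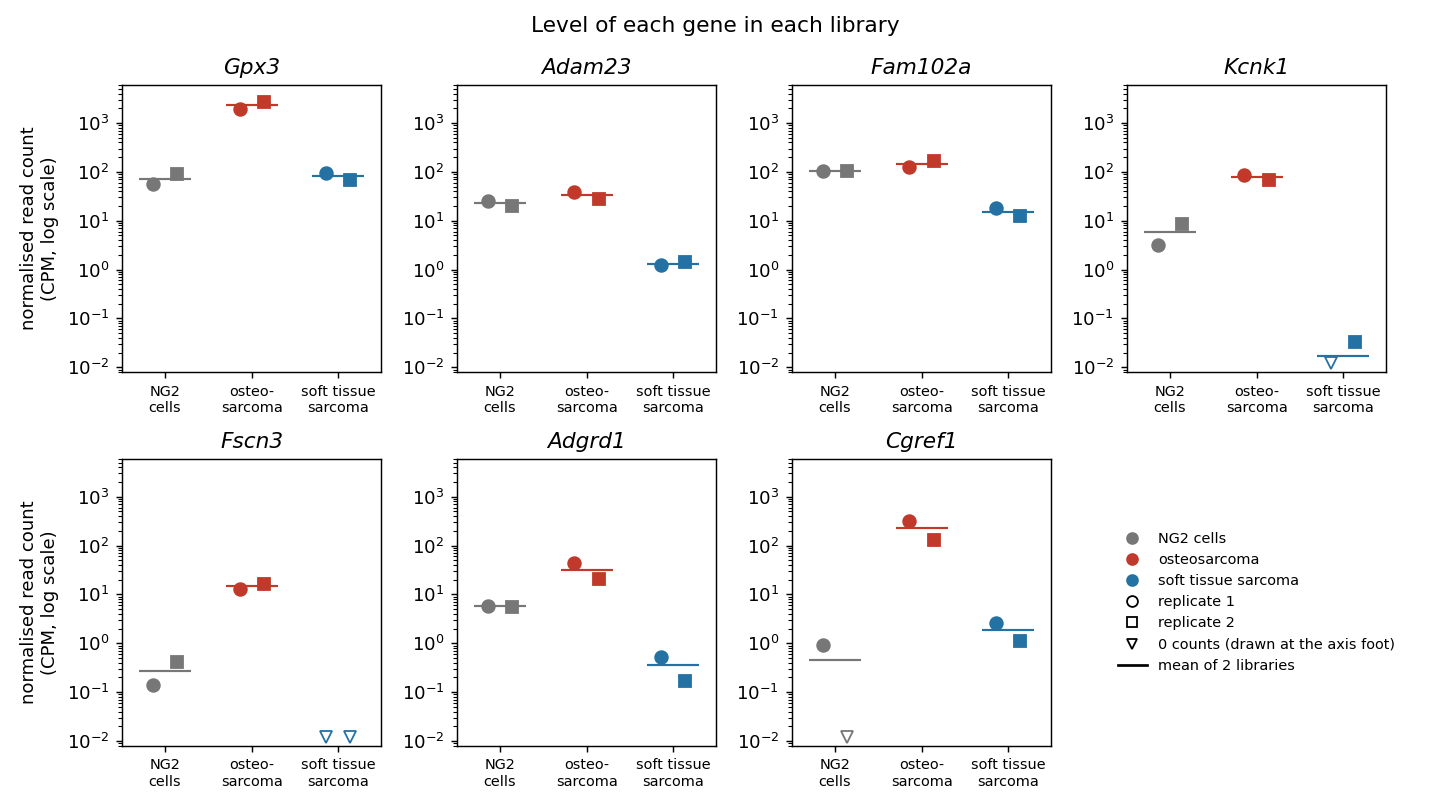
Normalised read count (CPM, log axis) of the 7 genes in each of the 6 libraries, with a bar at the mean of each group of 2; open triangles stand for 0 counts. In every panel both osteosarcomas lie above both soft tissue sarcomas, the difference that chose the genes, while the NG2 cells lie near the osteosarcomas for Adam23 and Fam102a and near the soft tissue sarcomas for Gpx3.

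Among the secreted proteins, Gpx3 (ENSMUSG00000018339; chromosome 11, 54902453 to 54910377, GRCm38) had 56.3 and 88.9 CPM in the sorted cells, 1958 and 2698 CPM in osteosarcomas, and 94.8 and 66.8 CPM in soft tissue sarcomas. Only the osteosarcomas stood apart, and the ranges of the other groups overlapped. The tumour libraries also chose the genes, which favours rises in osteosarcoma and falls in soft tissue sarcoma. The p-values of such changes in the members, here and below, are not free of that choice. Gpx3 rose 32.1-fold in osteosarcoma against NG2 cells (log2 fold change 5.0 ± 0.43, SE, n = 2 per group; edgeR adjusted p = 0.00485). In soft tissue sarcoma the log2 fold change was 0.16 ± 0.36 (edgeR adjusted p = 0.784). Cgref1 (ENSMUSG00000029161; chromosome 5, 30933143 to 30945591) had 0.914 and 0 CPM in the sorted cells (33 and 0 counts), 320 and 133 CPM in osteosarcomas, and 2.65 and 1.11 CPM in soft tissue sarcomas. It was near 0 outside the osteosarcomas. Cgref1 rose in osteosarcoma by a log2 fold change of 8.99 ± 1.64 (SE; edgeR adjusted p = 0.0188), and in soft tissue sarcoma the value was 2.10 ± 1.31 (edgeR adjusted p = 0.289). Both values rest on NG2 cell replicate 1, which held all 33 counts of its group. Without it the fitted values, 16.2 and 9.36, depend on the prior count, and without NG2 cell replicate 2 they were 7.96 and 1.07.

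Adam23 (ENSMUSG00000025964; chromosome 1, 63445891 to 63596276) showed another pattern, with 25.8 and 20.2 CPM in the sorted cells, 39.1 and 28.1 CPM in osteosarcomas, and 1.22 and 1.41 CPM in soft tissue sarcomas. Both osteosarcomas lay above both NG2 cell libraries, the nearest pair 1.09-fold apart, and the soft tissue sarcomas were far below both. Against NG2 cells, the log2 fold change of Adam23 in osteosarcoma was 0.55 ± 0.36 (SE; edgeR adjusted p = 0.308), while in soft tissue sarcoma it fell 17.4-fold (log2 fold change -4.12 ± 0.41; edgeR adjusted p = 0.00846). Fam102a (ENSMUSG00000039157; chromosome 2, 32535332 to 32569756) had 106 and 103 CPM in the sorted cells, 124 and 163 CPM in osteosarcomas, and 18.5 and 12.3 CPM in soft tissue sarcomas. Its osteosarcomas again lay just above the NG2 cells and its soft tissue sarcomas far below. The log2 fold change of Fam102a in osteosarcoma was 0.46 ± 0.31 (SE; edgeR adjusted p = 0.31), and in soft tissue sarcoma it fell 6.77-fold (log2 fold change -2.76 ± 0.33; edgeR adjusted p = 0.00964). For these genes the gap between the tumour types thus went with a low level in soft tissue sarcoma, while a rise in osteosarcoma did not pass the test.

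The receptor Adgrd1 (ENSMUSG00000044017; chromosome 5, 129096750 to 129204599) had 5.68 and 5.66 CPM in the sorted cells, 43.3 and 20.8 CPM in osteosarcomas, and 0.537 and 0.168 CPM in soft tissue sarcomas. The 3 groups did not overlap. Adgrd1 rose 5.65-fold in osteosarcoma (log2 fold change 2.5 ± 0.65, SE; edgeR adjusted p = 0.0442) and fell in soft tissue sarcoma (log2 fold change -3.94 ± 0.71; edgeR adjusted p = 0.0199). Its call in osteosarcoma was close to the threshold: with the replicate number as a block, or without either NG2 cell library, either soft tissue sarcoma or osteosarcoma replicate 1, it was lost, with adjusted p up to 0.155. The channel gene Kcnk1 (ENSMUSG00000033998; chromosome 8, 125995170 to 126030685) had 3.16 and 8.48 CPM in the sorted cells, 86.4 and 67.1 CPM in osteosarcomas, and 0 and 0.0337 CPM in soft tissue sarcomas, 1 count in all. It was thus present in the sorted cells, higher in the bone tumours and all but missing from the subcutaneous ones. Kcnk1 rose 13.2-fold in osteosarcoma (log2 fold change 3.72 ± 0.67, SE; edgeR adjusted p = 0.0182; adjusted p = 0.0631 without NG2 cell replicate 1). It fell in soft tissue sarcoma (edgeR adjusted p = 0.00983), where the level in NG2 cells was 542 times higher from pooled counts, with a 95% exact counting interval of 96.8 to 21450.

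Fscn3 (ENSMUSG00000029707; chromosome 6, 28427789 to 28438622) had 0.139 and 0.413 CPM in the sorted cells (5 and 18 counts), 12.8 and 16.7 CPM in osteosarcomas, and 0 counts in both soft tissue sarcomas. It was the member with the fewest reads outside the osteosarcomas. Fscn3 passed the filter on low counts through the osteosarcomas, for which it was also chosen, so no test is given for it. Its mean was 53.4-fold higher in osteosarcoma than in NG2 cells, and in soft tissue sarcoma it was at least 8.20-fold lower than in NG2 cells, with 3 counts for the whole group standing for 0. The Fscn3 and Gcc1 genes share 58 exonic bases on opposite strands, and the strand setting of the counting is not given in the sources used here. Gcc1 had 693 and 509 counts in NG2 cells, 505 and 319 in osteosarcomas, and 523 and 220 in soft tissue sarcomas. The part of reads from these shared bases in the Fscn3 counts was not tested.

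**Figure D2:**
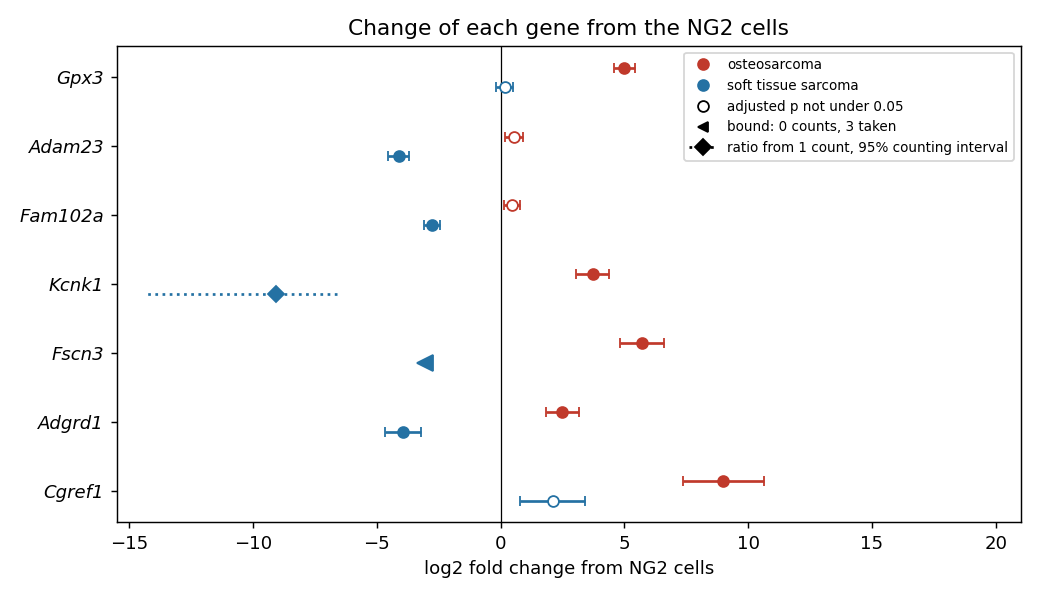
Log2 fold change of each gene from NG2 cells in either tumour type, with bars of 1 SE (n = 2 per group); the triangle is a bound from 0 counts and the diamond a ratio from 1 count with its counting interval. Adam23 and Fam102a lie near 0 in osteosarcoma and below 0 in soft tissue sarcoma, Gpx3 lies near 0 in soft tissue sarcoma and at 5.0 in osteosarcoma, and both comparisons share the NG2 cell libraries.

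Fscn3 left aside, 4 of the other 6 genes rose in osteosarcoma against NG2 cells and 2 did not pass the test, while 10.5% of all tested genes rose (21.5% changed either way). In soft tissue sarcoma 4 of these 6 fell and 2 did not pass, while 9.4% of all tested genes fell, 9.89% rose and 19.3% changed either way. The libraries of both tumour groups had also chosen the genes, which tilts both counts upward, the rises in osteosarcoma and the falls in soft tissue sarcoma. Nothing about the set is read from these counts. Without soft tissue sarcoma replicate 1 or replicate 2, 0 members and 0 of all genes were called by edgeR in soft tissue sarcoma. In those fits, 5 members (Fscn3 included) and 4510 and 4286 of all genes had an unadjusted p under 0.05, and DESeq2 called 5 members on all libraries. The fall of Adgrd1 was also lost without either NG2 cell library. Without NG2 cell replicate 1, 2 members, Gpx3 and Cgref1, kept their call in osteosarcoma.

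On the log2 scale, the mean of both tumour groups against NG2 cells does not use the difference between the tumour types. It is still made of the tumour libraries that chose the genes, so its p-values are not free of that choice. It can also move through 1 tumour type alone, as for Gpx3, at 5.0 in osteosarcoma and 0.16 in soft tissue sarcoma. Here Gpx3 rose (log2 fold change 2.58 ± 0.36, SE; edgeR adjusted p = 0.00688), as did Cgref1 (5.54 ± 1.39; edgeR adjusted p = 0.0328; 4.52 to 12.8 without 1 library). Adam23 fell (-1.79 ± 0.30; edgeR adjusted p = 0.0114), and so did Fam102a (-1.15 ± 0.26; edgeR adjusted p = 0.024). Adgrd1 had a log2 fold change of -0.72 ± 0.53 (edgeR adjusted p = 0.342). No value is given for Kcnk1 and Fscn3, whose mean over the tumours is set by the prior count that stands for 0 or 1 counts in soft tissue sarcoma. Of all tested genes 12.5% rose and 15.7% fell in this comparison, 28.2% in all. Without soft tissue sarcoma replicate 1 or replicate 2, only Gpx3 kept its call among the members given a value here. Without NG2 cell replicate 1 the calls of Adam23 and Fam102a were lost, and without NG2 cell replicate 2 those of Fam102a and Cgref1.

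In 5 of the 7 genes, Adam23, Fam102a, Kcnk1, Fscn3 and Adgrd1, both osteosarcomas lay above and both soft tissue sarcomas below both NG2 cell libraries. Of all tested genes, 238 (1.25%) had this order and 1.59% the opposite one, while 32.7% had both osteosarcomas above and 34.6% both soft tissue sarcomas below the NG2 cells. Both osteosarcomas lay above both soft tissue sarcomas in 4670 genes (24.5%), which include all of the 238, and the members were chosen for this. The order around the NG2 cells thus rests in part on the contrast that chose the genes. Between the tumour types themselves, the mean CPM in osteosarcoma was 28.8-fold that of soft tissue sarcoma for Gpx3, 25.4-fold for Adam23, 9.32-fold for Fam102a, 90.9-fold for Adgrd1 and 120-fold for Cgref1. Fscn3 was at least 438-fold higher, again on a floor of 3 counts for the group, and Kcnk1 7112 times higher by pooled counts, with an exact counting interval of 1276 to 281000. Among 7609 protein-coding genes at or above 12.8 CPM in both osteosarcomas, the lowest level among the members, genes were compared by the ratio of the lower osteosarcoma to the higher soft tissue sarcoma. As far apart or farther were 83 genes for Fam102a (6.71-fold), 50 for Adam23 (19.8-fold), 47 for Gpx3 (20.7-fold), 38 for Adgrd1 (38.8-fold), 32 for Cgref1 (50.1-fold), 10 for Kcnk1 and 8 for Fscn3.

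The 2 osteosarcomas, from different bones, differed by at most 2.41-fold in these genes. The genes were chosen for high counts in both osteosarcomas, so this likeness was favoured in advance and nothing is read from it. The ratio of the higher to the lower osteosarcoma was 1.29 for Kcnk1, 1.31 for Fscn3, 1.32 for Fam102a, 1.38 for Gpx3, 1.39 for Adam23, 2.08 for Adgrd1 and 2.41 for Cgref1. Replicate 1 was higher for Adam23, Kcnk1, Adgrd1 and Cgref1, and replicate 2 for the others. The 12 osteoclast markers summed to 1138 CPM in replicate 1 and 21380 CPM in replicate 2, with none at 0, and the 10 skeletal muscle fibre markers to 14.7 and 1040 CPM. The 15 osteoblast and bone matrix markers summed to 72470 and 57920 CPM, all of them at or above 1 CPM in both tumours. Their sum was 7788 and 6429 CPM in soft tissue sarcomas (Sp7 and Mepe at 0) and 210 and 199 CPM in the sorted cells. Most of the sum in soft tissue sarcomas came from Col1a1 (2389 and 1779 CPM), Col1a2 (3415 and 2414 CPM) and Spp1 (1916 and 2161 CPM). Single markers differed between the osteosarcomas in both directions, with Bglap at 1235 and 37.8 CPM and Ibsp at 439 and 17590 CPM. Chondrocyte markers summed to 1481 and 734 CPM in osteosarcomas and 295 and 121 CPM in soft tissue sarcomas. The 9 adipocyte markers summed to 62.8 and 96.9 CPM in osteosarcomas and 37.7 and 47.4 CPM in soft tissue sarcomas, with Plin1 and Lep at 0 in all libraries. In NG2 cells, the 9 lymphocyte markers summed to 5830 and 2932 CPM, against 54.1 to 153 CPM in the tumours. The part of any of these cell types in the members' levels was not tested.

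**Figure D3:**
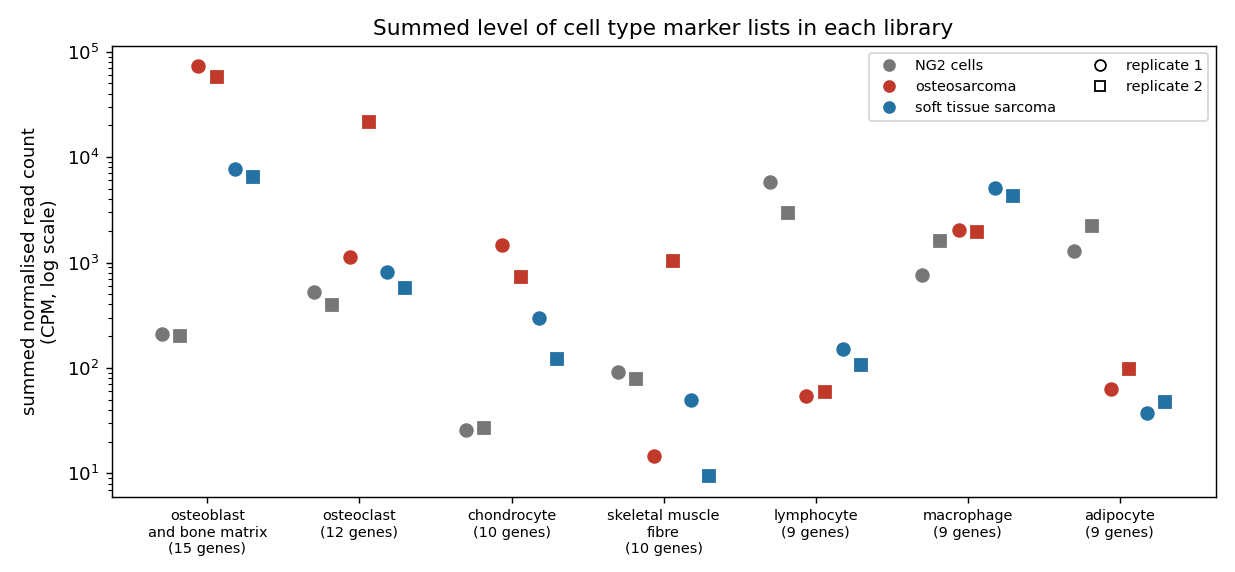
Summed normalised read count (CPM, log axis) of 7 fixed marker lists in each library. Osteoclast and muscle markers separate osteosarcoma replicate 2 (21380 and 1040 CPM) from replicate 1 (1138 and 14.7 CPM). The bone matrix sum is high in both, although single markers in it differ between them.

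On a scale of CPM per kilobase of annotated exon, the mean levels in osteosarcoma ordered the genes as Gpx3 (1284), Cgref1 (109), Kcnk1 (34.3), Fam102a (23.7), Fscn3 (7.07), Adgrd1 (3.85) and Adam23 (1.87). The osteosarcoma ranges of neighbours did not overlap in this order, with 1080 and 1488 for Gpx3, 154 and 63.8 for Cgref1, 38.6 and 30.02 for Kcnk1, 20.4 and 26.9 for Fam102a, and 6.13 and 8.0 for Fscn3. Adgrd1 followed with 5.20 and 2.504 and Adam23 with 2.18 and 1.57. In NG2 cells Gpx3 (40.0 CPM per kilobase) and Fam102a (17.2) led, and Fscn3 (0.132) was lowest. Per kilobase of the longest coding transcript, which is 6426 bases for Adam23 against 17907 bases of annotated exon, the order of the means in osteosarcoma stayed the same, but 3 pairs of neighbours overlapped. Kcnk1 had 38.6 and 30.02 and Fam102a 29.4 and 38.7, and the values of Adgrd1 (8.38 and 4.04) overlapped those of Fscn3 (6.71 and 8.77) and Adam23 (6.08 and 4.37).

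The genes with the most similar pattern were found by the root mean square difference of centred log2 CPM over the 6 libraries, among 14920 protein-coding genes, as a description. The tumour values that chose the members enter this difference. Neighbours higher in osteosarcoma than in soft tissue sarcoma were thus favoured in advance, and no role of the members is read from them. For Fscn3 they were Lrrc75b (0.566) and Alpl (0.600), the bone alkaline phosphatase. For Cgref1 they were Pth1r (0.835), the parathyroid hormone receptor of osteoblasts, and Clec11a (1.04), a secreted osteogenic growth factor. Adgrd1 was closest to Megf10 (0.591) and Ndnf (0.682), Adam23 to Atoh8 (0.483) and Limch1 (0.635), and Kcnk1 to Car3 (1.03) and Tmie (1.07). Fam102a had the smallest difference of all, to Cadps2 (0.191), followed by Tmem62 (0.341). The nearest to Gpx3, Gm16485 (0.417) and Lctl (0.438), were at most 2.05 CPM in any library. Among the 7 genes themselves, Adam23 and Fam102a were the most alike (0.717) and Kcnk1 and Cgref1 the least (4.28).

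The relatives and partners of the 7 genes were also compared between osteosarcoma and soft tissue sarcoma. Of 145 tested relatives, none was higher and 2 were lower in osteosarcoma by edgeR, while 0.121% of all tested non-members were called (0.0368% higher and 0.0841% lower). At an unadjusted p under 0.05, 12 relatives were higher and 23 lower, and DESeq2 called 7 higher and 15 lower. Over all 19017 non-members, 3015 had an unadjusted p under 0.05 and DESeq2 called 1909, in either direction. The called genes were in the cAMP list, which was tested because of Adgrd1. Adcy7, an adenylyl cyclase that leukocytes also express, had 12.1 and 13.9 CPM in osteosarcomas, 123 and 108 CPM in soft tissue sarcomas and 85.6 and 98.4 CPM in the sorted cells (log2 fold change -3.15 ± 0.27, SE; edgeR adjusted p = 0.0428). The 9 macrophage markers summed to 2021 and 1931 CPM in osteosarcomas, 5100 and 4251 CPM in soft tissue sarcomas and 764 and 1614 CPM in the sorted cells, and their part in the Adcy7 difference was not tested. Prkacb, a catalytic subunit of protein kinase A, had 66.5 and 59.1 CPM in osteosarcomas, 380 and 374 CPM in soft tissue sarcomas and 99.5 and 105 CPM in the sorted cells (log2 fold change -2.59 ± 0.25, SE; edgeR adjusted p = 0.0453). Both calls were lost without any single NG2 cell or soft tissue sarcoma library or osteosarcoma replicate 1, with the replicate block, and with only the compared groups in the fit. Over all alternatives the values ranged from -3.25 to -3.05 for Adcy7 and from -2.71 to -2.51 for Prkacb, with adjusted p up to 0.273 for both. Ptk7, the described partner of Adgrd1, had 27.2 and 54.6 CPM in osteosarcomas, 9.35 and 17.4 CPM in soft tissue sarcomas and 0.859 and 1.70 CPM in the sorted cells. Ptk7 rose against NG2 cells in both tumour types, by log2 fold changes of 4.99 ± 0.67 and 3.38 ± 0.63 (SE; edgeR adjusted p = 0.0093 and 0.021).

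**Figure D4:**
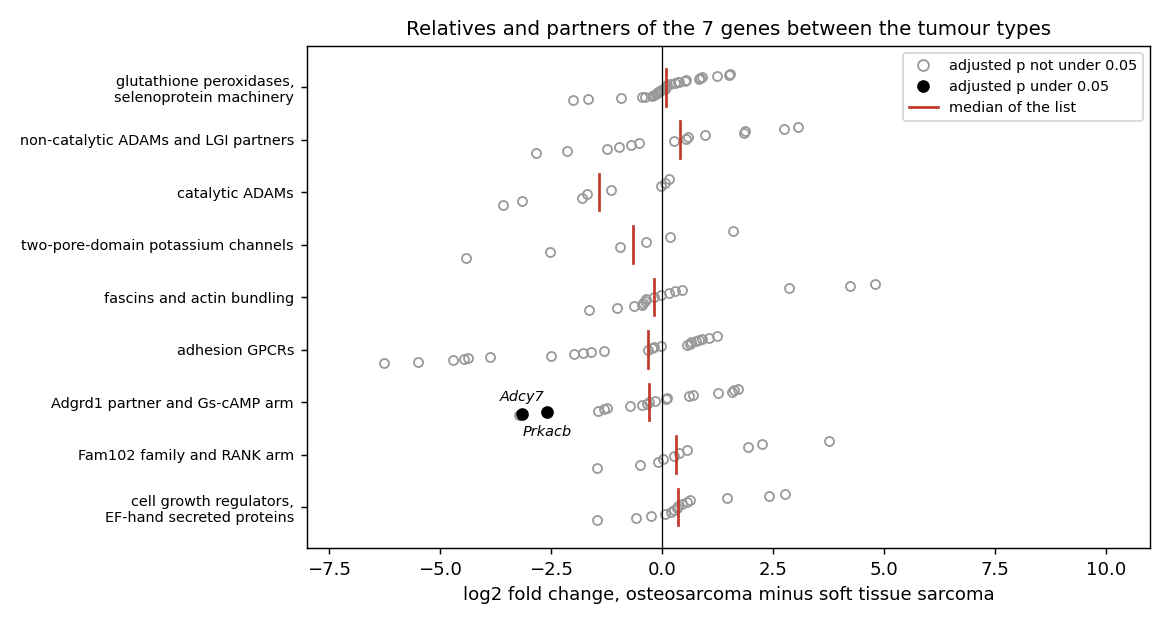
Log2 fold change of osteosarcoma against soft tissue sarcoma for 138 of the 145 tested relatives and partners of the 7 genes, those with more than 3 counts in each tumour group; each circle is a gene and the red line the median of its list. Medians lie between -1.42 for catalytic ADAMs and 0.40 for non-catalytic ADAMs and their partners, and the 2 filled points, Adcy7 and Prkacb, are the genes called.

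In the glutathione peroxidase and selenoprotein list, edgeR called 0 of 30 genes between the tumour types, with 3 higher and 3 lower at an unadjusted p under 0.05 and 2 and 2 by DESeq2. Gpx7 and Gpx8, peroxidases of the endoplasmic reticulum without selenocysteine, rose in both tumour types against NG2 cells. Gpx8 had 136 and 103 CPM in osteosarcomas, 112 and 148 CPM in soft tissue sarcomas and 5.79 and 5.46 CPM in the sorted cells, with a log2 fold change between the tumour types of -0.13 ± 0.28 (SE; edgeR adjusted p = 0.88). Gpx1, the cytosolic enzyme, had 546 and 1369 CPM in osteosarcomas and 1130 and 702 CPM in soft tissue sarcomas, and the ranges overlapped. Selenop, the plasma selenium carrier, had 474 and 171 CPM in osteosarcomas and 1228 and 1367 CPM in soft tissue sarcomas (log2 fold change -2.01 ± 0.50, SE; edgeR adjusted p = 0.156). Against NG2 cells, 10 of the 30 tested genes rose in osteosarcoma and 20 did not pass, with a median of 0.53 against 0.04 over all genes. In that comparison edgeR called 0 as lower, with 2 at an unadjusted p under 0.05 and 2 by DESeq2. In soft tissue sarcoma 8 rose, 1 fell and 21 did not pass, with a median of 0.57 against 0 over all genes. Of all tested genes, 10.5% rose in osteosarcoma and 9.89% in soft tissue sarcoma. Selenom and Selenof were among those that rose in both tumour types.

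Calls of relatives in soft tissue sarcoma, like those of the members, were lost without either soft tissue sarcoma library. In osteosarcoma, the calls of Gpx7, Selenof, Lgi4, Kcnk2, Kcnk7, Adgre5, Adam8 and Adam19 were lost without either NG2 cell library. Those of Selenof, Lgi4, Kcnk7, Adam8 and Adam19 were also lost without either soft tissue sarcoma. Of all tested genes, 10.5% rose in osteosarcoma and 2094 of 19024 fell, while 9.89% rose and 9.4% fell in soft tissue sarcoma. Of 24 other adhesion receptors tested, 7 fell in osteosarcoma against NG2 cells and none rose by edgeR, with 4 higher at an unadjusted p under 0.05 and 3 by DESeq2, while in soft tissue sarcoma 4 fell and 1 rose. The 9 endothelial markers summed to 1041 and 1809 CPM in the sorted cells, 154 and 436 CPM in osteosarcomas and 268 and 196 CPM in soft tissue sarcomas, and their part in these counts was not tested. Adgrg1 had 103 and 189 CPM in the sorted cells and 3.13 to 8.85 CPM in the tumours, and Adgre5, a leukocyte receptor, fell in both tumour types. Adgrg6, which Schwann cells also use, had 1.33 and 0.569 CPM in osteosarcomas and 27.6 and 14.9 CPM in soft tissue sarcomas (log2 fold change -4.46 ± 0.66, SE; edgeR adjusted p = 0.0756). Adam22, the paralogue of Adam23 that also binds LGI proteins, had 24.9 and 160 CPM in the sorted cells, 0.114 and 6.33 CPM in osteosarcomas and 15.9 and 12.2 CPM in soft tissue sarcomas, and none of its comparisons passed. Of 14 tested non-catalytic ADAMs and partners, 1 fell in osteosarcoma (Lgi4) and 1 rose in soft tissue sarcoma (Dlg3). Among 8 catalytic ADAMs, 1 rose and 2 fell in osteosarcoma (Adam8 and Adam19), and 4 rose in soft tissue sarcoma, where Adam19 had 161 and 117 CPM against 12.4 and 18.7 CPM in osteosarcomas (edgeR adjusted p = 0.0583 between the tumour types). Of 7 K2P channels, Kcnk2 rose in both tumour types, from 0.665 and 0.321 CPM in the sorted cells to 5.76 and 14.2 CPM in osteosarcomas and 10.7 and 14.9 CPM in soft tissue sarcomas. Kcnk7 fell in osteosarcoma, from only 0.831 and 0.848 CPM in the sorted cells to 1 count in the group. Kcnk6 had 17.1 and 11.1 CPM in osteosarcomas and 4.63 and 4.75 CPM in soft tissue sarcomas (log2 fold change 1.59 ± 0.57, SE; edgeR adjusted p = 0.262). Between the tumour types, 1 of the 7 was higher and 2 lower at an unadjusted p under 0.05.

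Among actin bundlers, Fscn1, the widely expressed fascin, had 21.6 and 35.7 CPM in the sorted cells, 74.7 and 50.7 CPM in osteosarcomas and 68.9 and 102 CPM in soft tissue sarcomas. Fscn2 had 0.227 and 0.0711 CPM in osteosarcomas and 0.302 and 0.674 CPM in soft tissue sarcomas. Fam102b, the paralogue of Fam102a, had 52.3 and 83.3 CPM in the sorted cells, 27.5 and 34.2 CPM in osteosarcomas and 74.9 and 96.1 CPM in soft tissue sarcomas, with both osteosarcomas below both soft tissue sarcomas and a log2 fold change between the tumour types of -1.47 ± 0.34 (SE; edgeR adjusted p = 0.144). Tnfrsf11a, the gene of RANK, had 18.9 and 47.7 CPM in osteosarcomas and 22.4 and 22.5 CPM in soft tissue sarcomas. In the list of Fam102b and the RANK arm, 3 of 10 genes fell in osteosarcoma and 4 in soft tissue sarcoma against NG2 cells. Among them were Btk, Tec and Plcg2, which leukocytes also express. Of all tested genes, 2094 of 19024 fell in osteosarcoma and 9.4% in soft tissue sarcoma. EdgeR called 0 of the 10 as higher, with 2 in osteosarcoma and 0 in soft tissue sarcoma at an unadjusted p under 0.05. Between the tumour types 0 were called, with Tnfsf11 and Nfatc1 higher and Fam102b lower in osteosarcoma at an unadjusted p under 0.05. The log2 fold changes were 3.76 for Tnfsf11 (edgeR adjusted p = 0.181) and 2.25 for Nfatc1 (edgeR adjusted p = 0.288). Of the 15 tested EF-hand secreted proteins and growth regulators listed with Cgref1, 7 rose and 1 fell in osteosarcoma and 7 rose in soft tissue sarcoma, against 10.5% and 9.89% of all tested genes that rose. Rcn3, a reticulocalbin of the secretory pathway, had 35.2 and 35.1 CPM in the sorted cells, 1473 and 1092 CPM in osteosarcomas and 580 and 353 CPM in soft tissue sarcomas. Sparc, a collagen-binding matrix protein, had 14310 and 9334 CPM in osteosarcomas and 2533 and 1957 CPM in soft tissue sarcomas (log2 fold change 2.40 ± 0.36, SE; edgeR adjusted p = 0.0756).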

How the data were processed

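The deposited tables held raw read counts per Ensembl gene, 1 table per library, with 5 counters of unassigned reads, which were left out of library sizes. The tools named per the submitters' processing notes were STAR, HTSeq, Trim Galore, FastQC, cutadapt and DESeq2, with the builds mm10 and GRCm38; versions, strand setting and annotation release were not given in the sources used here. Per the labels' protocols, cDNA was primed with oligo(dT) and amplified by PCR; without molecular identifiers, reads may repeat a molecule, so intervals and floors cover counting error only. Reads that overlapped no gene made up 19.5% to 33.2% of a library. GENCODE M21 (GRCm38) gave symbols and positions for 36723 of 38561 gene IDs.

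Counts were tested with edgeR 4.0.16 (R 4.3.3): TMM scaling, filterByExpr (min.count 10, min.total.count 15), and quasi-likelihood F tests in a single model of the 6 libraries (no covariates), with 3 residual degrees of freedom. Adjusted p (Benjamini-Hochberg over all genes tested) under 0.05 was called, and only such genes are said to rise or fall. The SE is the size of the log2 fold change divided by the square root of F. DESeq2 1.42.0 was an alternative. The smallest p of an exact permutation test with 2 libraries a side is 0.333.

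The members and gene lists were chosen with earlier results of these data known. Named relatives were fixed ones plus up to 3 called genes per list and contrast by smallest p; not all are printed. Sequences come from RefSeq promoters and GENCODE transcripts.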

Additional observations from a re-analysis of the deposited data

Results flagged for a closer look

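In 5 genes the tumour types lay on opposite sides of the NG2 cells in every library, a difference that was not tested because it rests on the contrast that chose the genes. Both osteosarcomas were above and both soft tissue sarcomas below both NG2 cell libraries for Adam23 (log2 fold change of osteosarcoma against NG2 cells 0.55), Fam102a (0.46), Kcnk1 (3.72), Fscn3 (5.71) and Adgrd1 (2.5). Of all tested genes, 238 (1.25%) had this order and 1.59% the opposite one. The 238 all lie among the 4670 genes (24.5%) with both osteosarcomas above both soft tissue sarcomas. The choice of genes had already set osteosarcoma above soft tissue sarcoma in every member. Adam23 and Fam102a did not pass the edgeR test in osteosarcoma. No test is given for Fscn3, which passed the filter on low counts through the osteosarcomas.

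The changes from NG2 cells were also compared between the tumour types by a test of the difference itself. Adcy7 had a log2 difference of -3.15 (osteosarcoma minus soft tissue sarcoma, edgeR adjusted p = 0.0428) and Prkacb -2.59 (edgeR adjusted p = 0.0453). They were 2 of 145 relatives tested, and both calls were lost with the replicate block and with only the compared groups in the fit. Groups of 2 libraries were not examined for single outlying libraries.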

How the results depend on the processing

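Counts of calls depended on the fit. In osteosarcoma against NG2 cells, 4086 genes were called by edgeR, 6894 by DESeq2, 2660 with a replicate block, 2083 with only these groups in the fit, and 1278 to 3429 without 1 library. For soft tissue sarcoma the same comparison gave 3671, 6439 by DESeq2, 2209 with the replicate block and 0 to 4694 without 1 library. For the mean of both tumour groups they were 5365, and 1596 to 5337 without 1 library. Between the tumour types 23 non-members were called, 1909 by DESeq2, 402 without a filter, 8 with the replicate block, 0 with only these groups in the fit (3066 at an unadjusted p under 0.05), and 0 to 309 without 1 library. Without 1 library, 2 to 5 members were called in osteosarcoma, 0 to 5 in soft tissue sarcoma and 1 to 4 in the mean of both, with Fscn3 and Kcnk1 counted; where a fit left 1 library in a group, that library was assumed to vary like the others. The causes were not tested. Deviations of same-numbered libraries correlated at -0.0864 to 0.049. These values show no sign of pairing by replicate number, but they cannot tell whether such libraries shared an animal or a batch. Among the member tests given here, the only call lost with the replicate block was that of Adgrd1 in osteosarcoma. No gene named in the text and called by edgeR on all 6 libraries changed sign in another fit. Size factors in place of TMM moved the median of all genes by less than 0.1 on the log2 scale. At 0 counts in soft tissue sarcoma, the difference of Fscn3 from NG2 cells has a lower bound in size and no upper one.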
